A study of Mus musculus with 4 samples.

Results

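Proteoglycans are core proteins that carry long sulfated sugar chains, and together with the matrix glycoproteins they make up most of the noncollagen mesh around cells. They bind collagen fibrils, hyaluronan and growth factors. Several of them hold or present ligands of the TGF-beta superfamily, the family of GDF10. In muscle, the heparan sulfate proteoglycans of the myoblast surface are known as coreceptors for growth factors, and the basement membrane proteins enclose the mature fibre. A list of 41 mouse genes of this kind, covering noncollagen matrix proteins and cell-surface proteoglycans, was read from a count table of 51826 gene identifiers by matching identifiers to symbols. All 41 were found.

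The table held 4 RNA sequencing libraries of C2C12, a mouse myoblast line, in growth medium. GDF10-treated cells (2 libraries, called GDF10 1 and GDF10 2 here) received recombinant GDF10 protein for 6 h, at a dose not given in the sources used here. Control cells (2 libraries, vehicle 1 and vehicle 2) received vehicle for 6 h. The series describes the 2 libraries of each group as biological replicates of this single line, and the question was which transcripts differ after exposure to the ligand.

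Total counts ran from 29641165 to 35597310 per library, and levels are given as CPM, the count divided by the scaled library total and multiplied by 1000000. A count of 3 made 0.0839 to 0.101 CPM. Limits taken from a count of 3 cover counting error only. No library repeated another: in each pair the counts differed by 15.1 to 29.9 times the chi-square that sampling alone gives. The value was 15.1 for the vehicle pair, 27.8 for the GDF10 pair and 16.3 to 29.9 for pairs across the groups. The labels call the cells muscle stem cells, and their extraction protocol speaks of longissimus dorsi where all else says C2C12. Of 8 myoblast markers 7 were counted, with a summed level of 2250 to 2290 CPM with GDF10 and 2190 to 2210 CPM with vehicle, while Pax7, the defining satellite cell factor, had 0 counts in all 4 libraries. The 3 leukocyte markers summed to 3.38 to 3.43 CPM with GDF10 and 3.61 to 4.73 CPM with vehicle, and the 3 endothelial markers to 0.267 to 0.573 CPM and 0.405 to 0.755 CPM in the same order. Chondrocyte markers summed to 66.5 to 67.1 CPM with GDF10 and 65.6 to 66.9 CPM with vehicle, mostly Sox9, and osteoblast markers to 57.3 CPM in both GDF10 libraries and 60.8 to 68.2 CPM with vehicle, mostly Runx2. Adipocyte markers stood between 2.46 and 3.65 CPM, and 0 markers of any type passed the test. Fibroblast markers, which myoblast lines partly share, summed to 1090 to 1220 CPM with GDF10 and 1020 to 1100 CPM with vehicle. Most of this was Col1a1 (922 and 1050 CPM with GDF10, 876 and 957 CPM with vehicle). Tcf21 was at 0, Thy1 had 1 count, in GDF10 2, and Dpt and Pi16 stood between 0.567 and 1.76 CPM. The lowest unadjusted p among the markers of these types was that of Ly6a, with 102.9 and 102.8 CPM with GDF10 and 82.5 and 80.4 CPM with vehicle (log2 fold change 0.34, edgeR unadjusted p = 0.00245 and adjusted p = 0.467). Myog, an early differentiation factor among the myoblast markers, had 35.2 and 28.9 CPM with GDF10 and 23.9 and 23.7 CPM with vehicle (log2 fold change 0.43, edgeR adjusted p = 0.748). Myf5, another myoblast marker, went the other way. It had 22.7 and 23.1 CPM with GDF10 and 25.1 and 26.9 CPM with vehicle (log2 fold change −0.18, edgeR adjusted p = 0.833). The log2 fold changes of Myod1, Des, Itga7, Cdh15 and Chrna1 ran from 0.02 to 0.07. The part of these markers in the results was not tested. These are bulk samples, in which fewer cells of a type and less RNA per cell cannot be told apart.

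The 41 genes together held 0.981% and 1.05% of all counts in GDF10 1 and GDF10 2, and 1.001% and 1.06% in vehicle 1 and vehicle 2. Sparc, which encodes a collagen-binding glycoprotein, gave between 22.1% and 24.2% of these counts. Of the 41, 31 had enough counts to be tested, meaning that they passed edgeR's filter on low counts. The other 10 had fewer than 10 counts over all libraries. Of these, 6 were at 0 throughout: Gpc3, Gpc4, Acan, Fbn2, Eln and Tnxb. A count of 0 allows up to 0.0839 to 0.101 CPM per library. Lum and Mfap4 had 2 counts each, both in GDF10 2, Gpc2 had 4 in vehicle 1, and Mfap2 had 4 in GDF10 1 and 1 in vehicle 1.

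To compare levels between genes, CPM was divided by the length of the merged exons in kb. On that scale Mgp, whose product inhibits calcification of soft tissue, averaged 654 CPM per kb with GDF10 and 608 CPM per kb with vehicle, and Sparc 626 and 605 CPM per kb. Gpc1, a glypican held on the cell surface by a lipid anchor, followed at 307 CPM per kb with GDF10 and 297 CPM per kb with vehicle. Bgn, Sdc4 and Sdc1 came next, with means over the 4 libraries of 109.9, 109.8 and 104 CPM per kb. The difference between Mgp and Sparc, and those among Bgn, Sdc4 and Sdc1, were smaller than the spread between libraries of these genes. The levels of the 35 genes with a count spanned several orders of magnitude, and 5 of the 7 roles held both abundant and nearly silent genes, as the plot of levels by library shows.

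**Figure D1:**
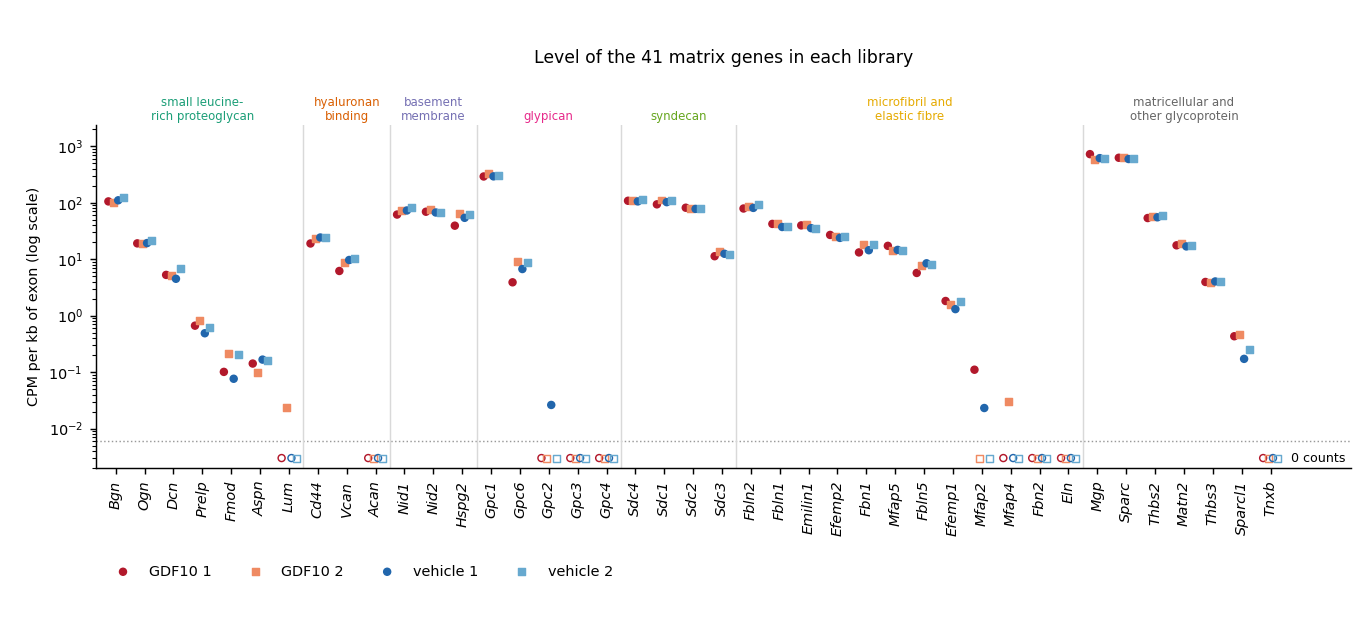
Level of each of the 41 genes in CPM per kb of exon (log axis), one point per library (red tones GDF10, blue tones vehicle), grouped by role; open points at the bottom stand for 0 counts. The points of a gene lie close together in most cases, with Gpc6 and Hspg2 lowest in GDF10 1, while levels between genes run from 0 counts to means of 654 CPM per kb for Mgp with GDF10.

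Levels differed within some gene clusters. Osteoglycin (Ogn), asporin (Aspn) and osteomodulin (Omd) are small leucine-rich proteoglycans, short core proteins built of leucine-rich repeats that bind collagen, and lie side by side on chromosome 13. Ogn had 1466 and 1729 counts in GDF10 1 and GDF10 2, and 1769 and 1637 in vehicle 1 and vehicle 2. Aspn, which ends 40.5 kb before Ogn begins, had 10 and 8 counts with GDF10 and 14 and 11 with vehicle. Omd, which lies between them and is not among the 41, had 18 and 13 counts with GDF10 and 21 and 19 with vehicle. On chromosome 10 Dcn, the decorin gene, had 922 and 1067 counts with GDF10 and 938 and 1194 with vehicle, while Lum, 47 kb away, had 0 and 2 counts with GDF10 and 0 in both vehicle libraries. On chromosome 1 Prelp and Fmod, with a gap of 116 kb, had 304 and 64 counts over all libraries. The glypican genes Gpc4 and Gpc3 adjoin on the X chromosome with a gap of 107 kb, and both were at 0 counts in the 4 libraries.

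The 250 bases before the annotated start are shown for Ogn, Aspn, Gpc3 and Gpc4 of these neighbours. They are also shown for Bgn, the small leucine-rich proteoglycan gene with the highest level. Of these, Bgn and Ogn were active and Aspn nearly silent, while Gpc3 and Gpc4 were both at 0 counts. No window is shown for the active glypican genes Gpc1 and Gpc6, or for Dcn, Lum, Omd, Prelp and Fmod. The sequences are from RefSeq, build GRCm38.p6, 5′ to 3′ on the gene's strand. Capitals mark matches, on either strand, to CAGAC (the core of the SMAD-binding element, which signals of the TGF-beta superfamily use), GGCGCC (another element bound by SMAD proteins), CAGCTG (an E-box bound by myogenic factors) and TATAAA (where the general transcription factors bind many tissue-specific promoters).
Bgn, plus strand, chrX:73483351-73483600: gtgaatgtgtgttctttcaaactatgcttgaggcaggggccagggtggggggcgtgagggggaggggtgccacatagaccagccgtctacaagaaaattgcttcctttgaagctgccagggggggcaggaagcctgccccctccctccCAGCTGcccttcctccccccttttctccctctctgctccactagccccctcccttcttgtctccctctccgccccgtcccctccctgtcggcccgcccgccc
Ogn, plus strand, chr13:49607765-49608014: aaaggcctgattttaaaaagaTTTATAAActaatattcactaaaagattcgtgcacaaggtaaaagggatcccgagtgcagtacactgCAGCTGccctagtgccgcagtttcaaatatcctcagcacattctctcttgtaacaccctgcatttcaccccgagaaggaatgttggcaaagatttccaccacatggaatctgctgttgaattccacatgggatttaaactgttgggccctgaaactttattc
Aspn, plus strand, chr13:49544193-49544442: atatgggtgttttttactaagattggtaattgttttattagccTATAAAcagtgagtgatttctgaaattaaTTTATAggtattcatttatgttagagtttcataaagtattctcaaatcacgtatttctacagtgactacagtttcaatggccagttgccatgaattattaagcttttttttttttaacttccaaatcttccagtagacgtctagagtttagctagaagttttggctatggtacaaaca
Gpc3, minus strand, chrX:52613975-52614224: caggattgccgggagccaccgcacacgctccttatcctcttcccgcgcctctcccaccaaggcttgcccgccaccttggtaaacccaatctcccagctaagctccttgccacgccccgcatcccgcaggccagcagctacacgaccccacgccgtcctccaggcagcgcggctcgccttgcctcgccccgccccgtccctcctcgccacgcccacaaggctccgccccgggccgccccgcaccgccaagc
Gpc4, minus strand, chrX:52164924-52165173: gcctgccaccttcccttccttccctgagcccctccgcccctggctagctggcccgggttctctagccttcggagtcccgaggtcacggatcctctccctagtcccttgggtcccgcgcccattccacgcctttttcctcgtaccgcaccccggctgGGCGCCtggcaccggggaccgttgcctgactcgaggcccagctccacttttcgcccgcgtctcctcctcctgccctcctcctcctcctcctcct

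The windows of Gpc3 and Gpc4 held 25 and 18 CG dinucleotides, against 7, 4 and 2 in those of Bgn, Ogn and Aspn and a median of 6 over 32851 windows of all genes. Ogn and Aspn each held 2 TATAAA matches, 1 on each strand and overlapping in Ogn, Bgn and Ogn each held 1 CAGCTG, and none of the 5 windows held CAGAC. Of the 41 genes 28 had a window. CAGAC was found in 12 of them (42.9%), against 42.2% of all windows, GGCGCC in 4 (14.3% against 9.59%), CAGCTG in 6 (21.4% against 13.0%) and TATAAA in 3 (10.7% against 12.4%). Some genes had more than 1 window (33 for the 28 genes), and a match in any of them was counted. The shares of the list are thus per gene and those of all windows per window. Extra windows can only raise the shares per gene. These matches describe letters and not sites in use.

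In the comparison of GDF10 with vehicle, no gene of the list passed the test. Of the 31 tested genes 0 had a Benjamini-Hochberg adjusted p under 0.05 in edgeR's quasi-likelihood test, where 25 of all 15467 tested genes did, or 0.162% (0.084% higher and 0.0776% lower after GDF10). The smallest adjusted p in the list was 0.815. In edgeR 3 genes had p-values below 0.05 before adjustment, all with higher values after GDF10, against 5.94% of all tested genes (2.44% higher and 3.49% lower). DESeq2 gave 3 such genes and limma-voom 4, and the unadjusted share of all genes in these tools was not taken for comparison. After adjustment 0 passed in either (DESeq2 gave 1 gene no adjusted p). Of all genes, 0.456% of the 14267 with an adjusted p passed in DESeq2 and 0.0711% of 15467 in limma-voom. The median log2 fold change was −0.01 for the 31 genes and 0.00 for all tested genes, and the median absolute log2 fold change 0.12 for both. Both libraries of one group lay beyond both of the other in 14 of the 31 genes, 8 above and 6 below vehicle, against 38.2% of all tested genes (18.8% above and 19.4% below). With GDF10 2 left out, 2 genes passed, Vcan and Fbln5, and 224 genes in all. The overall number was 112 without GDF10 1 and 44 without vehicle 2, with 0 of the 31 passing in either, and 27 without vehicle 1, again with 0 of the 31.

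The 95% interval of the log2 fold change lay within a 1.5-fold change in either direction for 20 of the 31 genes and within a 2-fold change for 25. The 6 whose interval reached past 2-fold were Fmod, Prelp, Aspn and Sparcl1, which had few counts, and Hspg2 and Gpc6, whose GDF10 libraries stood apart from each other. The plot of fold changes shows the intervals by role.

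**Figure D2:**
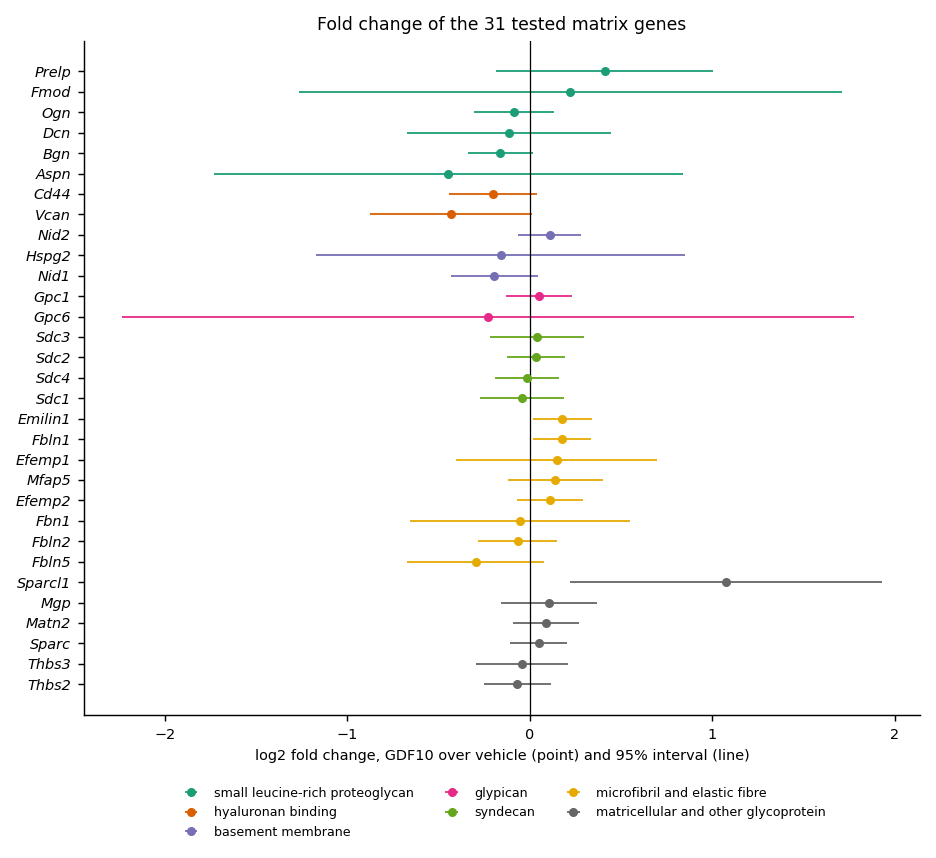
Log2 fold change, GDF10 over vehicle, of the 31 tested genes (point) with its 95% interval from edgeR's quasi-likelihood fit (line), grouped by role. All but 3 intervals (Sparcl1, Emilin1 and Fbln1) include 0, and that of Gpc6 is the widest, from −2.24 to 1.78.

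**Figure D3:**
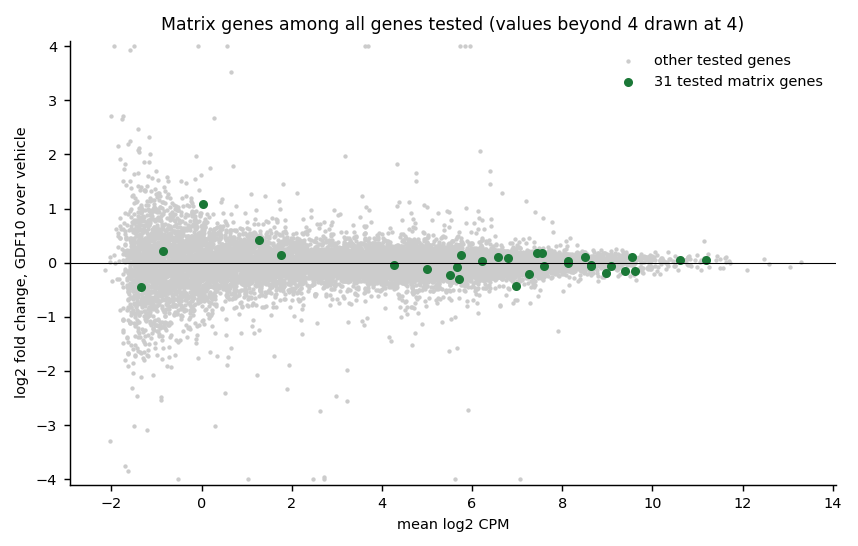
Log2 fold change, GDF10 over vehicle, against mean log2 CPM for all 15467 tested genes (grey) and the 31 tested genes of the list (green); values beyond 4 are drawn at 4. The green points lie inside the grey cloud, Sparcl1 being the highest at 1.08.

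Among the small leucine-rich proteoglycans, 6 of 7 were tested, with a median log2 fold change of −0.10. Bgn, the biglycan gene (ENSMUSG00000031375; mm10 chromosome X, 73483602 to 73495933), had 643 and 623 CPM in GDF10 1 and GDF10 2, and 673 and 743 CPM in vehicle 1 and vehicle 2. Both GDF10 libraries lay below both vehicle libraries, by less than the test could separate (log2 fold change −0.16, standard error 0.08, unadjusted p = 0.0687 and adjusted p = 0.825 in edgeR). Ogn had 48.9 and 49.6 CPM with GDF10 and 49.5 and 55.3 CPM with vehicle, and the groups overlapped. Decorin binds TGF-beta as well as collagen, and its gene Dcn had 30.7 and 30.6 CPM with GDF10 and 26.2 and 40.3 CPM with vehicle. The vehicle values lay on either side of the GDF10 pair (log2 fold change −0.12, 95% interval −0.68 to 0.44). Prelp, of a proteoglycan that anchors basement membranes to connective tissue, had 2.40 and 2.92 CPM with GDF10 and 1.762 and 2.262 CPM with vehicle. The groups did not overlap, and the log2 fold change was 0.41 (standard error 0.25, edgeR unadjusted p = 0.148). Fmod and Aspn, under 1 CPM in every library, had log2 fold changes of 0.22 and −0.45 with intervals over 2 log2 units wide.

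Among the hyaluronan-binding genes the cartilage proteoglycan gene Acan was at 0, and both tested genes lay below vehicle. Vcan encodes versican, a large chondroitin sulfate proteoglycan of loose provisional matrix (ENSMUSG00000021614; chromosome 13, 89655312 to 89742509). It had 89.4 and 124 CPM in GDF10 1 and GDF10 2, and 140 and 149 CPM in vehicle 1 and vehicle 2. GDF10 1 was far below the other 3 libraries and GDF10 2 closer to vehicle. The log2 fold change was −0.43 (standard error 0.17, unadjusted p = 0.0544, adjusted p = 0.825, edgeR). Without GDF10 2 it was −0.69 (edgeR adjusted p = 0.00534), without GDF10 1 it was −0.21 (adjusted p = 0.745), and over all alternatives the adjusted p ran from 0.00534 to 1. Cd44, the main hyaluronan receptor of the cell surface, had 129 and 157 CPM with GDF10 and 164 and 165 CPM with vehicle. Here too GDF10 1 was lowest (log2 fold change −0.20, edgeR unadjusted p = 0.0858 and adjusted p = 0.825). Without GDF10 1 the log2 fold change was −0.07 (adjusted p = 0.991), and without GDF10 2 it was −0.35 (adjusted p = 0.0654).

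The basement membrane genes were all abundant. Hspg2, of the heparan sulfate proteoglycan perlecan, had 561 and 925 CPM in GDF10 1 and GDF10 2, and 773 and 889 CPM in vehicle 1 and vehicle 2. The GDF10 libraries enclosed the vehicle pair, and the log2 fold change of −0.16 had an interval of −1.17 to 0.85. Nidogens link laminin to type IV collagen. Nid1 had 429 and 507 CPM with GDF10 and 506 and 564 CPM with vehicle, with GDF10 1 lowest (log2 fold change −0.19, edgeR adjusted p = 0.828, and −0.08 without GDF10 1 and −0.32 without GDF10 2). Nid2 had 358 and 390 CPM with GDF10 and 347 in both vehicle libraries. Its groups did not overlap, in the direction opposite to Nid1 (log2 fold change 0.11, standard error 0.07, edgeR adjusted p = 0.845).

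Glypicans and syndecans carry heparan sulfate at the cell surface and act as coreceptors. Gpc1 had 1505 and 1667 CPM with GDF10 and 1512 and 1551 CPM with vehicle, with overlapping groups (log2 fold change 0.05, 95% interval −0.13 to 0.23). Gpc6, the other glypican gene with enough counts, had 25.01 and 58.8 CPM in GDF10 1 and GDF10 2, and 43.0 and 55.5 CPM in vehicle 1 and vehicle 2. The GDF10 libraries differed 2.35-fold from each other, the largest such gap among the 31 genes, and the log2 fold change was −0.23 with all libraries and 0.26 without GDF10 1 (edgeR adjusted p = 0.960 and 0.991). All 4 syndecan genes were tested and held log2 fold changes between −0.04 and 0.04. Sdc4, whose product works with integrins at focal adhesions, had 276 and 281 CPM with GDF10 and 269 and 293 CPM with vehicle. Sdc1 had 357 and 426 CPM with GDF10 and 390 and 417 CPM with vehicle. Sdc2 had 288 and 282 CPM with GDF10 and 274 and 282 CPM with vehicle, and Sdc3, known from satellite cells, 67.6 and 82.9 CPM with GDF10 and 74.7 and 71.8 CPM with vehicle. Their 95% intervals ranged from −0.27 at the lowest to 0.30 at the highest.

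Of 12 genes of microfibrils and elastic fibres, 8 were tested, with a median log2 fold change of 0.12. Elastin (Eln) itself was at 0, as was Fbn2, while the genes of several of its partners were counted. Emilin1 encodes a glycoprotein at the elastin and microfibril interface that is known to restrain TGF-beta processing (ENSMUSG00000029163; chromosome 5, 30913402 to 30921277). It had 196 and 200.4 CPM with GDF10 and 175 CPM in both vehicle libraries. Fbln1, of the calcium-binding glycoprotein fibulin (ENSMUSG00000006369; chromosome 15, 85205949 to 85286535), had 184 CPM in both GDF10 libraries and 162 and 163 CPM in the vehicle libraries. For both genes the replicates nearly coincided and the groups were apart by a small step, with log2 fold changes of 0.18 and 0.18, standard errors of 0.07 and 0.07, and unadjusted p-values of 0.0329 and 0.0333 in edgeR. Their adjusted p was 0.825.

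Efemp2, needed for elastic fibre assembly in the mouse, had 102 and 96.7 CPM with GDF10 and 90.3 and 93.8 CPM with vehicle (log2 fold change 0.11). Mfap5, a microfibril component, had 61.8 and 51.1 CPM with GDF10 and 52.4 and 50.1 CPM with vehicle, with overlapping groups (log2 fold change 0.14). Fbln5, of another elastogenic fibulin, was on the other side, with 39.4 and 53.9 CPM in GDF10 1 and GDF10 2 and 58.4 and 56.2 CPM in vehicle 1 and vehicle 2. GDF10 1 was again the low library. The log2 fold change was −0.30 (edgeR adjusted p = 0.833), −0.54 without GDF10 2 (adjusted p = 0.0434) and −0.09 without GDF10 1 (adjusted p = 0.991). Fbln2 had 503 and 555 CPM with GDF10 and 516 and 593 CPM with vehicle, and Fbn1, of the main microfibril protein, 159.8 and 220.0 CPM with GDF10 and 175 and 219.9 CPM with vehicle. Both spans overlapped. Efemp1 stood between 2.66 and 3.70 CPM in the 4 libraries.

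Among the matricellular and other glycoprotein genes, Sparcl1, a relative of Sparc (ENSMUSG00000029309; chromosome 5, 104079111 to 104113733), had the largest fold change of the list and the lowest unadjusted p. It had 38 and 47 counts in GDF10 1 and GDF10 2, and 18 and 22 in vehicle 1 and vehicle 2, which made 1.27 and 1.35 CPM with GDF10 and 0.504 and 0.743 CPM with vehicle. The groups did not overlap. The log2 fold change was 1.08 (standard error 0.36, unadjusted p = 0.0206, adjusted p = 0.815, edgeR), and over the alternatives the adjusted p ran from 0.38 to 1. Its level of 0.329 CPM per kb was far under the 615 of Sparc. Sparc (ENSMUSG00000018593; chromosome 11, 55394500 to 55423183) had 2370 and 2369 CPM with GDF10 and 2250 and 2334 CPM with vehicle. The groups were apart by less than the test could separate (log2 fold change 0.05, 95% interval −0.11 to 0.20).

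Mgp (ENSMUSG00000030218; chromosome 6, 136872435 to 136875823) had 861 and 691 CPM in GDF10 1 and GDF10 2, and 731 and 711 CPM in vehicle 1 and vehicle 2. GDF10 1 was the highest library and GDF10 2 the lowest, and the log2 fold change of 0.11 became −0.06 without GDF10 1 (edgeR adjusted p = 0.991). Thbs2, of a thrombospondin that binds matrix and cell receptors, had 375 and 399 CPM with GDF10 and 387 and 424 CPM with vehicle (log2 fold change −0.07). Matn2, of the filament-forming matrilins, had 110.2 and 118 CPM with GDF10 and 105 and 109.7 CPM with vehicle (log2 fold change 0.09). Thbs3 had 19.0 and 18.9 CPM with GDF10 and 19.4 and 19.6 CPM with vehicle (log2 fold change −0.04).

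The difference between the 2 GDF10 libraries varied with the length of the genes. Over the 31 genes, the deviation of log2 CPM from the mean of the 4 libraries had a Spearman correlation with exon length of −0.72 in GDF10 1, and of 0.30, 0.36 and 0.38 in GDF10 2, vehicle 1 and vehicle 2. Over all tested genes these values were −0.33, 0.08, 0.11 and 0.19. The points are genes of the same libraries and share their scaling, and deviations within a gene sum to 0, so these are descriptions. The 31 genes had a median exon length of 4.94 kb, against 3.84 kb for all tested genes. Of the 15 longer than their median, 11 were lowest in GDF10 1 and 2 in vehicle 1, while of the 16 at or under it 2 were lowest in GDF10 1 and 10 in vehicle 1. Together 13 of the 31 were lowest in GDF10 1 and 12 in vehicle 1, against 30.4% and 20.5% of all tested genes. The longer ones had a median log2 fold change of −0.12, with 11 of 15 negative, and the shorter ones of 0.11, with 11 of 16 positive.

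Gpc6, Vcan, Hspg2, Fbln5 and Fbn1 were the 5 genes furthest below the mean in GDF10 1 among those with over 100 counts in every library, at −0.79, −0.46, −0.46, −0.38 and −0.26 on the log2 scale. Mgp, the shortest of the 31 at 1.19 kb, was at 0.21 there. When the trend of log2 CPM with exon length was removed in each library, a limma fit gave a log2 fold change of −0.30 for Gpc6. Without this step it was −0.23 in edgeR and −0.32 in limma-voom, so the choice of test moves this value too. With the trend removed it was −0.32 for Vcan, −0.16 for Cd44, −0.14 for Nid1, −0.26 for Fbln5, 0.19 for Emilin1 and 0.18 for Fbln1. In this fit 0 of the 31 passed (smallest limma adjusted p 0.795). The part of gene length in the other differences was not tested.

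**Figure D4:**
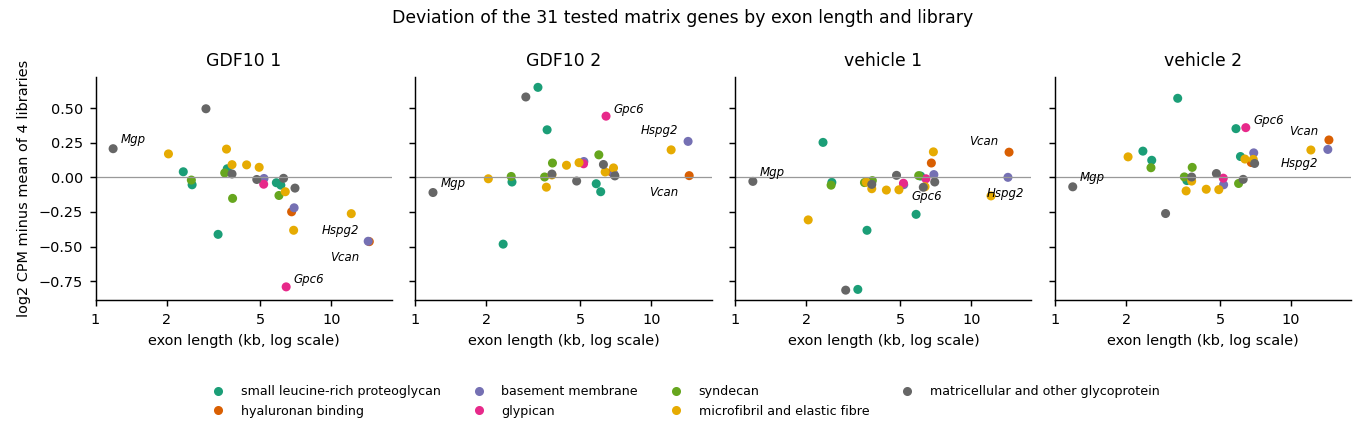
Log2 CPM of each of the 31 tested genes minus its mean over the 4 libraries, against exon length in kb (log axis), one panel per library and one colour per role. The points slope down in GDF10 1, where Gpc6 is at −0.79 and Mgp at 0.21, and rise or stay level in the other 3 libraries.

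Of the 31 genes, 5 had exons overlapping those of another tested gene, each on the opposite strand, and since the use of strand in counting is not given in the sources used here their reads cannot be told apart there. Thbs3 shared 318 bases with Mtx1 (log2 fold change 0.20), Efemp2 173 with Mus81 (0.07), Nid2 437 with Rtraf (0.08), Gpc1 977 with Ankmy1 (−0.03) and Aspn 7 with Cenpp (0.30). None of these partners passed (edgeR adjusted p 0.848 to 0.996). Ankmy1 had 10 to 26 counts, against at least 45124 for Gpc1. Cenpp had 161 and 170 counts with GDF10 and 178 and 98 with vehicle, and Mtx1 had 1336 and 1154 with GDF10 and 1240 and 968 with vehicle, more than Aspn and Thbs3 themselves. How many of these reads fell on the shared bases was not tested.

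The enzymes that build, modify and cleave the sugar chains, and related matrix genes, were read from 6 lists holding 150 different genes of the table, of which 108 were tested. Here too 0 passed in edgeR. An unadjusted p under 0.05 was found for 7 with higher and 1 with lower values, beside the 2.44% and 3.49% of all tested genes, and the imbalance itself was not tested. Median log2 fold changes of the lists ran from −0.08 to 0.04. In the linker and heparan sulfate list 0 of 26 tested genes passed, and 3 with higher values had p-values below 0.05 before adjustment. Uxs1, which makes the UDP-xylose for the first sugar of heparan and chondroitin sulfate chains, had 90.3 and 82.3 CPM with GDF10 and 66.3 and 60.2 CPM with vehicle. The groups were well apart (log2 fold change 0.45, standard error 0.09, adjusted p = 0.405 in edgeR), and Uxs1 passed in DESeq2 at an adjusted p of 0.0361 and in edgeR without GDF10 2 at 0.0368, with a range of up to 1 over the alternatives. Hs3st1, a heparan sulfate 3-O-sulfotransferase gene, had 14.2 and 15.5 CPM with GDF10 and 9.99 and 8.98 CPM with vehicle (log2 fold change 0.65, standard error 0.14, edgeR adjusted p = 0.438). Over its alternatives the adjusted p ran from 0.0813 to 1. Extl2 and Ndst3 had log2 fold changes of 0.23 and −0.43.

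In the chondroitin and dermatan sulfate list 0 of 14 passed. Chpf2, of a chondroitin polymerizing factor, had 64.7 and 98.3 CPM in GDF10 1 and GDF10 2, and 46.6 and 52.1 CPM in vehicle 1 and vehicle 2. The groups did not overlap, but the GDF10 libraries were far from each other (log2 fold change 0.72, edgeR adjusted p = 0.825). Without GDF10 1 the log2 fold change was 0.99 (adjusted p = 0.00204) and without GDF10 2 it was 0.39 (adjusted p = 0.132). Chpf2 shares 2466 bases with Smarcd3 on the other strand (log2 fold change 0.14), and for the counts of both genes together the log2 fold change was 0.40 (adjusted p = 0.307). Chpf, Csgalnact1 and Chst14 had log2 fold changes of 0.17, −0.19 and 0.21.

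In the hyaluronan list 0 of 12 passed. Hyal2, of a hyaluronan-cleaving enzyme, had 26.4 and 28.8 CPM with GDF10 and 18.9 and 21.8 CPM with vehicle (log2 fold change 0.44, edgeR adjusted p = 0.700), and Has2, the main hyaluronan synthase gene of mesenchymal cells, 25.2 and 27.4 CPM with GDF10 and 32.0 and 30.1 CPM with vehicle (log2 fold change −0.24, adjusted p = 0.825). Hapln4 and Hmmr had log2 fold changes of 0.19 and −0.15. Among remodelling and shedding genes 0 of 11 passed, with Sulf2, which removes sulfate from heparan sulfate outside the cell, at 59.9 and 55.7 CPM with GDF10 and 47.2 and 48.0 CPM with vehicle (log2 fold change 0.28, edgeR adjusted p = 0.815). Adam10, Gpld1 and Adam17 had log2 fold changes of −0.13, −0.25 and −0.13. Sulf2 shares 154 bases with Ncoa3, whose own log2 fold change was −0.10. For the counts of both together it was 0.147 (edgeR adjusted p = 0.785). Gpld1 shares 2466 bases with Mrs2 and Adam17 311 with Iah1. The log2 fold changes of these partners were −0.135 and −0.118, and those of the summed counts −0.183 and −0.13.

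Among elastic fibre partners 0 of 17 passed and none reached an unadjusted p under 0.05 in edgeR. Lox, of the enzyme that crosslinks elastin and collagen, had 1401 and 1495 CPM with GDF10 and 1503 and 1684 CPM with vehicle (log2 fold change −0.14, adjusted p = 0.834). Adamtsl5, Adamtsl4 and Thsd4 had log2 fold changes of 0.16, 0.19 and −0.41. With 1 library left out these ran from 0.02 to 0.33 for Adamtsl5, −0.01 to 0.37 for Adamtsl4 and −0.74 to −0.15 for Thsd4. Among 28 tested genes of related proteoglycans and glycoproteins 0 passed. Postn, of the matricellular protein periostin, had 214 and 221 CPM with GDF10 and 248 and 252 CPM with vehicle (log2 fold change −0.20, edgeR unadjusted p = 0.0211 and adjusted p = 0.815). Ecm1, Itgb1 and Tsku had log2 fold changes of 0.13, −0.10 and 0.12.

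**Figure D5:**
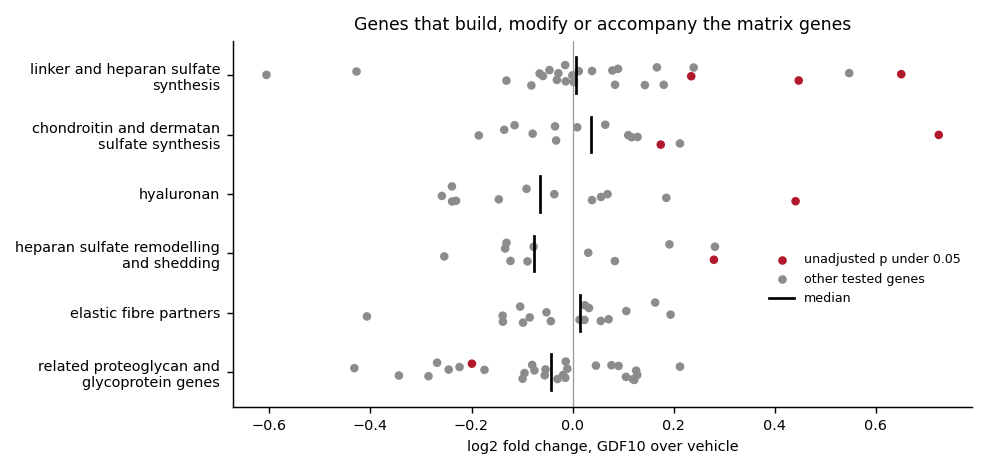
Log2 fold change, GDF10 over vehicle, of the tested genes of 6 lists of enzymes and related matrix genes (points; red where edgeR's unadjusted p is under 0.05, none passing adjustment) with each list's median (black bar). The medians lie between −0.08 and 0.04, and of the 8 red points 7 are positive and 1 is negative.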

How the data were processed

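The authors deposited raw read counts for each gene, as whole numbers. HISAT2 2.0, StringTie 1.3.3b, Trimmomatic 0.36, DESeq2 1.12.4, FastQC 0.11.2 and bedtools 2.26.0 are named per the submitters' processing notes, with build mm10 and no roles. How reads were counted, on which annotation and whether by strand, is not given in the sources used here. Columns named as controls were read as the vehicle group.

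Symbols, positions and merged exon lengths came from GENCODE release M21 (mm10), which held 51633 of 51826 identifiers. The test was edgeR 4.0.16 in R 4.3.3: filterByExpr, TMM, robust glmQLFit and glmQLFTest without covariates, on 15467 genes, with Benjamini-Hochberg adjustment over all of them and 0.05 as threshold. Standard errors came from the F statistic. CPM used TMM-scaled totals (factors 0.995 to 1.00), with 0.5 added to counts for deviations of log2 CPM. The tests were tried on simulated data.

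Alternatives were other scalings, filters and thresholds, DESeq2 1.42.0, limma 3.58.1 (voom), dispersions without robust estimation, a replicate block, removal of each library's loess trend with exon length (span 0.3), counts summed over genes sharing exon bases, and each library left out. The genes and lists were chosen with earlier results of these data known. Values in every library are given for the 12 tested genes of lowest p, the 2 of highest level per role, and genes sharing exons with a tested gene. Of each further list up to 4 genes of lowest p are named, with values in every library for 1 or 2 of them. Other genes of the 41 are given for completeness. Ly6a, Myog, Col1a1, Omd and other single markers were named after their values were seen.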

Additional observations from a re-analysis of the deposited data

How the results depend on the processing

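The count of 0 among the 31 tested genes was the same in every scaling, filter, test and threshold tried, and it became 2 without GDF10 replicate 2, so that leaving out 1 library gave 0 to 2. A lone library left in a group is assumed there to vary like the other group's pair. The tested genes were not always these 31. Without a filter 35 of the list were tested, and 29 at a CPM of at least 1 in 2 libraries. With counts summed over genes sharing exons there were 33 sums, which can include partner genes. The number over all genes ranged from 27 to 224 when 1 library was left out, was 65 with DESeq2, 11 with limma-voom, 9 without robust estimation, 6 at an adjusted p of 0.01 and 13 with counts summed over genes sharing exons, against 25. The median log2 fold change of the list lay between −0.0982 and 0.0547 when 1 library was left out, beside a within-group spread of 0.07. The median was also positive without a filter on low counts (0.04 over 35 genes), with the exon length trend removed (0.02) and with summed counts (0.04 over 33 sums). With the replicate block 0 of the 31 passed and 23 genes in all. Same-numbered libraries deviated together with a correlation of 0.06 over all genes and 0.51 over the 31, and no label says that a number marks a shared culture, so the numbers were not treated as pairs.

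Of 827 pairs of a named gene and an alternative, 810 kept sign and side of the threshold, 12 changed sign and 5 passed where the main test did not. The pairs at adjusted p thresholds of 0.1 and 0.01 reuse the main fit, where no named gene fell below either. They kept sign and side by construction. Of the sign changes, 2 are counts summed over all genes linked by shared exon bases. These were 0.063 for the sum holding Aspn and Cenpp and 0.119 for that holding Thbs3 and Mtx1. Such sums include larger partner genes and can hold more genes than those named. These sums say nothing of Aspn or Thbs3 alone. The other sign changes came from leaving out 1 library, where the log2 fold change ranged from −0.0245 to 0.122 for Gpc1, −0.976 to 0.257 for Gpc6, −0.176 to 0.0783 for Sdc1, −0.0762 to 0.0497 for Sdc4, −0.163 to 0.0366 for Fbln2, −0.00505 to 0.271 for Mfap5, −0.0613 to 0.257 for Mgp and −0.0115 to 0.373 for Adamtsl4. The causes were not tested. Leaving out 1 library moved the log2 fold change of 29 of the 46 named genes by over 1.5 times or in sign. Fmod, Aspn and Sparcl1 had under 50 counts per library, and their intervals reached past a 2-fold change.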
